A study of Homo sapiens with 12 samples.

Results

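Growth factor receptor tyrosine kinases were followed in RD cells as 10 genes chosen by name from the deposited count table: FGFR1, FGFR2, FGFR3, FGFR4, PDGFRA, PDGFRB, MET, EGFR, ERBB2 and ERBB3. All 10 had a row among the 26485 gene symbols of the table. A filter on low counts kept 15206 symbols for testing, 8 of the receptors among them, and left out FGFR2 and PDGFRA. RD cells are a long-established human line of rhabdomyosarcoma without the PAX fusion, a tumour whose cells resemble muscle precursors. Their NT5E gene, which encodes the ectonucleotidase CD73, was targeted by hairpins switched on with doxycycline, in constructs titled ish and ish2, and induced were compared with uninduced cells.

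The 4 groups were ish with 10 ng/mL doxycycline (Dox) for 96 h, ish without Dox, ish2 with Dox for 96 h and ish2 without Dox, with 3 libraries each and 12 in all. The labels call the Dox groups CD73 knockdown and the groups without Dox control, and every group carried an inducible hairpin. No group with Dox and a non-targeting hairpin was analysed here, so the drug, the hairpin and the loss of NT5E cannot be told apart in a Dox effect. The sources used here do not give whether a construct was carried by a clone or by a pool of cells. Nothing in the labels says that replicates were separate cultures, so the p-values measure the spread between these samples, which may be technical. Because these are bulk samples, fewer cells with an mRNA and less of it per cell cannot be told apart.

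NT5E averaged 1.57 ± 0.354 CPM (read counts normalised for library depth; SD, n = 3) in ish with Dox and 16.7 ± 1.61 CPM in ish without Dox. In ish2 it averaged 14.6 ± 0.542 CPM with Dox and 23.2 ± 1.03 CPM without Dox. The libraries held 26566603 to 32692207 gene counts. Ish without Dox replicate 3 had 9.57% of its reads set aside as not unique, against 7.15% to 8.22% in the others, and held reads of small nuclear RNA and histone genes that its group's other libraries nearly lacked. Of 8 markers of the muscle lineage, MYF5 was at 0 or 1 read in each group and the other 7 were detected, with a summed level of 2770 to 2940 CPM in ish with Dox, 1770 to 1850 CPM in ish without Dox, 1970 to 2010 CPM in ish2 with Dox and 1930 to 1980 CPM in ish2 without Dox. The summed markers of endothelial, leukocyte and epithelial cells stayed at or under 1.34 CPM in every library. Of the 3 neural markers SOX10 stayed at or under 0.124 CPM in every library, and the neurofilament gene NEFL gave most of a sum of 3.35 to 4.22 CPM in ish with Dox, 8.4 to 10.1 CPM in ish without Dox, 19.8 to 24.5 CPM in ish2 with Dox and 8.27 to 8.71 CPM in ish2 without Dox.

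Receptor tyrosine kinases are membrane proteins that bind a growth factor outside the cell, pair up and phosphorylate one another inside it, which recruits adaptors and turns on the RAS and MAPK, PI3K and phospholipase C pathways. FGF receptors bind fibroblast growth factors together with heparan sulfate, and FGFR4 is known as the FGF receptor of muscle progenitors and of rhabdomyosarcoma. PDGF receptors are typical of mesenchymal cells, MET binds hepatocyte growth factor and guides migrating muscle precursors, and in the EGF receptor family ERBB2 has no known ligand whereas ERBB3 binds neuregulins but has little kinase activity and signals through its partners.

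Without Dox, FGFR4 had the highest level of the 10 receptors once reads were divided by the length of the reference mRNA. In ish2 without Dox, FGFR4 averaged 124.7 CPM per kilobase, FGFR1 45.8, ERBB3 35.2, ERBB2 21.0, MET 12.5, EGFR 4.12, PDGFRB 1.25, FGFR3 0.478, FGFR2 0.0554 and PDGFRA 0.0423. In ish without Dox, FGFR4 averaged 137.7 CPM per kilobase, FGFR1 47.2, ERBB3 32.1, ERBB2 20.1, MET 11.9, EGFR 3.61, PDGFRB 1.25, FGFR3 0.589, FGFR2 0.0594 and PDGFRA 0.00642. The order was the same in both lines, and the only neighbours whose libraries overlapped were FGFR2 and PDGFRA in ish2. With the union of annotated exons as the length, FGFR4 stayed highest, but ERBB3 came before FGFR1 and MET before ERBB2 in both lines, and PDGFRA before FGFR2 in ish2.

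**Figure D1:**
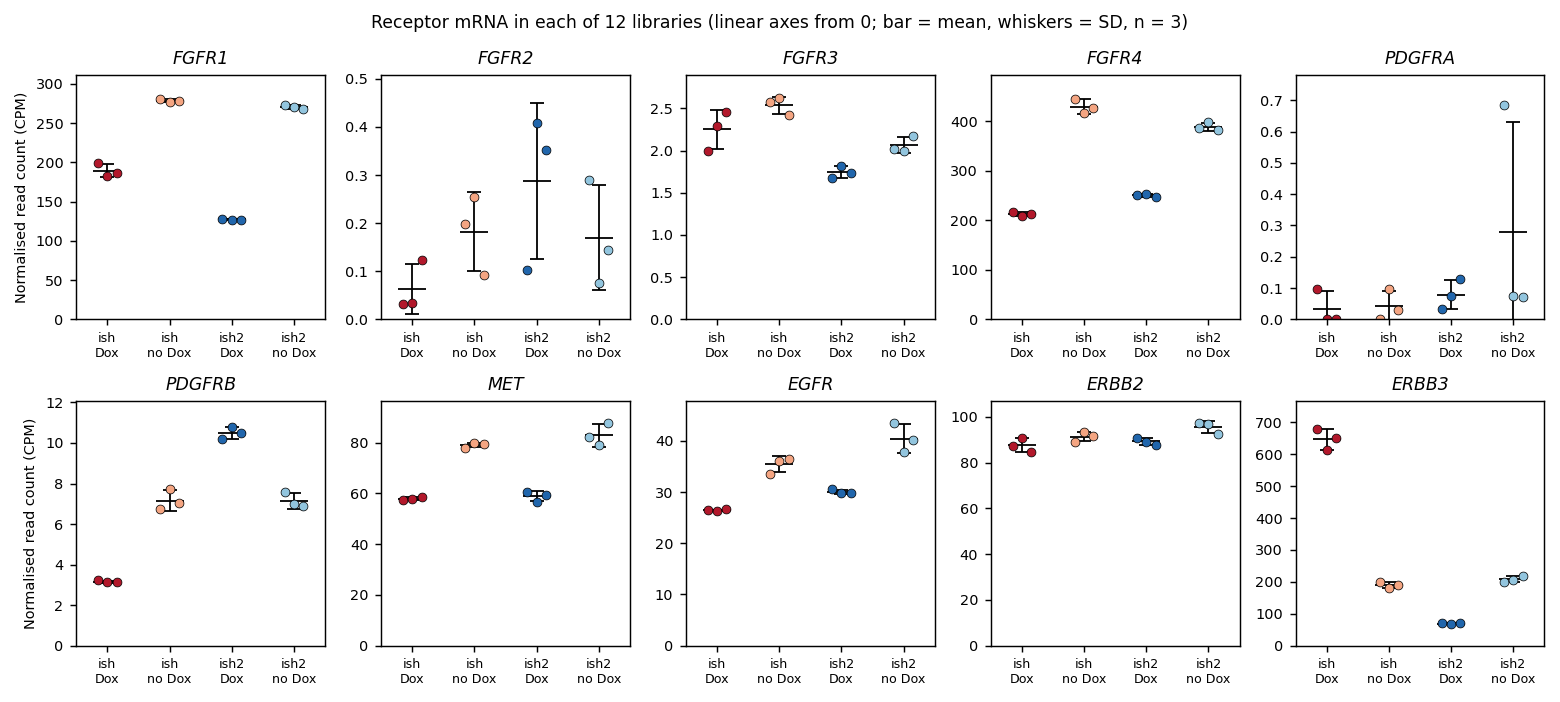
Normalised read count (CPM, linear axes from 0) of each receptor in the 12 libraries, with points for libraries, horizontal bars for means and whiskers for SD (n = 3, drawn down to 0 where they would pass it). ERBB3 lies at 613 to 678 CPM in ish with Dox and at 66.5 to 71.9 CPM in ish2 with Dox, on either side of both groups without Dox.

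Between the uninduced lines the receptors differed little. FGFR4 was 1.10-fold lower in ish2 than in ish (log2 fold change -0.14, SE 0.026, edgeR adjusted p = 8.63e-05), and EGFR was 1.14-fold higher (0.19, SE 0.045, adjusted p = 0.00158). ERBB3 was 1.10-fold higher in ish2 at the edge of the threshold (0.13, SE 0.047, adjusted p = 0.0479), with libraries that overlapped, and this call was lost in 8 of 20 alternative fits, among them those without ish no-Dox replicate 2 (adjusted p = 0.132) or replicate 3 (0.0972) and without ish2 no-Dox replicate 2 (0.103) or replicate 3 (0.221; range over all alternatives 5.57e-05 to 0.221). The other 5 tested receptors were not called, and their 95% intervals ran from -0.59 to 0.17 on the log2 scale, the widest being that of FGFR3 (-0.59 to -0.01). Over all tested genes 26.1% were called in this comparison, 52.5% of them higher in ish2 (64% with DESeq2). The uninduced groups lay apart for 4 of the 8 tested receptors (FGFR1, FGFR3, FGFR4 and EGFR), and for 38.2% of all tested genes.

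Of the 10 receptors, 5 fell with Dox in ish, 1 rose, 2 were not called and 2 were not tested, and in ish2 6 fell, 1 rose, 1 was not called and 2 were not tested. In ish 78.6% of all tested genes were called, 39.5% lower and 39.1% higher. In ish2 65% were called, 31.1% lower and 33.9% higher. The groups lay apart for 6 of the 8 tested receptors in ish, where they did for 80.6% of all tested genes, and for 8 of 8 in ish2, where they did for 66.6%. The median log2 fold change of the 8 tested receptors was -0.436 in ish and -0.46 in ish2, against -0.008 and 0.013 over all tested genes. FGFR1, FGFR4, MET and EGFR fell in both constructs, a pattern of 14.1% of tested genes. ERBB3 rose in ish and fell in ish2, a pattern of 12% of tested genes, and PDGFRB fell in ish and rose in ish2, a pattern of 14.1%. The Dox effects of the constructs differed for 4 of the 8, with ish2 minus ish above 0 for FGFR4 and PDGFRB and below 0 for FGFR1 and ERBB3. Over all tested genes 72.6% were called for this difference, 37.4% above 0 and 35.2% below.

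**Figure D2:**
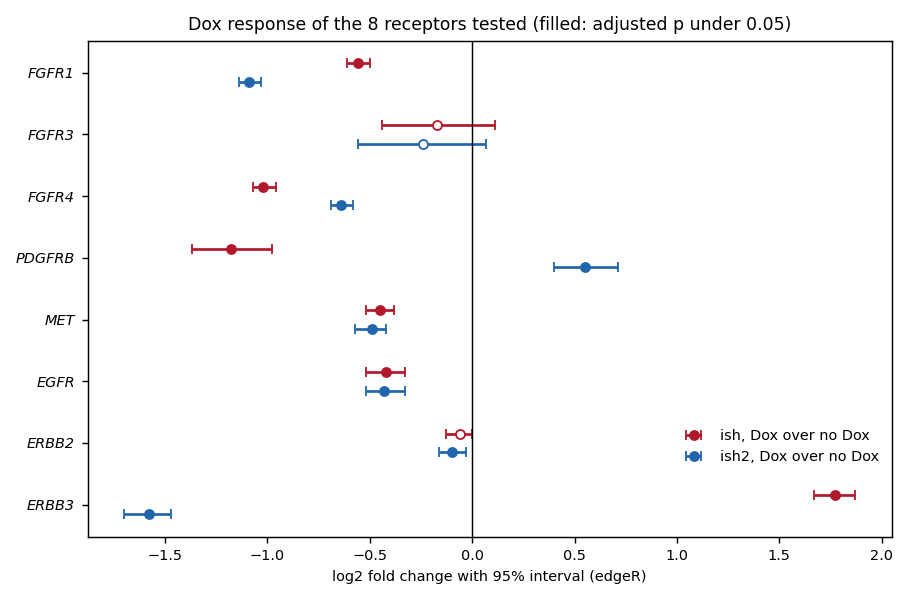
Log2 fold change (Dox over no Dox) of the 8 tested receptors with its 95% interval, ish in red above ish2 in blue, filled where the edgeR adjusted p was under 0.05. FGFR1, FGFR4, MET and EGFR lie left of 0 in both constructs, while ERBB3 (1.77 in ish, -1.58 in ish2) and PDGFRB (-1.18 and 0.55) lie on opposite sides.

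FGFR4 (chromosome 5 of GRCh38, 177086886 to 177098144, plus strand, 18 exons in the reference mRNA) fell in both constructs. It stood at 216, 208 and 213 CPM in ish with Dox, against 446, 417 and 427 CPM in ish without Dox. The groups did not overlap, with a 2.02-fold lower level (log2 fold change -1.02, SE 0.027, adjusted p = 3.7e-28). In ish2 it stood at 251, 253 and 247 CPM with Dox, against 386, 399 and 383 CPM without Dox. Here too every Dox library was the lower, and the level was 1.56-fold lower with Dox (-0.64, SE 0.027, adjusted p = 3.4e-21). The fall was smaller in ish2 than in ish by 0.38 on the log2 scale (SE 0.038, adjusted p = 3.78e-11).

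FGFR1 (chromosome 8, 38400215 to 38468834, minus strand, 18 exons), the FGF receptor of mesenchymal tissues, also fell in both, but more in ish2. It stood at 199, 183 and 187 CPM in ish with Dox, against 281, 277 and 278 CPM in ish without Dox, 1.47-fold lower (log2 fold change -0.56, SE 0.027, adjusted p = 5.97e-20). Its ish2 values were 128, 127 and 127 CPM with Dox, against 273, 270 and 268 CPM without Dox, 2.12-fold lower (-1.09, SE 0.028, adjusted p = 2.36e-27). The groups were apart in each construct, and the 3 ish2 Dox libraries were the lowest of the 12. In ish2 5.18% of tested genes had a larger change than FGFR1, and in ish 37.7%. The difference between the constructs was -0.53 (SE 0.039, adjusted p = 1.29e-14), opposite in sign to that of FGFR4.

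The per-length ratio of FGFR1 to FGFR4 was 0.465 to 0.487 in ish with Dox, against 0.334 to 0.351 in ish without Dox, and 0.266 to 0.271 in ish2 with Dox, against 0.358 to 0.374 in ish2 without Dox. The ratio was therefore above its uninduced range in ish with Dox and below it in ish2 with Dox. Summed over the 4 FGF receptors, the level was 98.2 to 103 CPM per kilobase in ish with Dox and 181 to 191 in ish without Dox. The sum was 101 to 103 CPM per kilobase in ish2 with Dox and 169 to 174 in ish2 without Dox, so the sums of the induced lines overlapped. These values depend on the length chosen: with exon unions, an alternative added after seeing the data, the ratio was 0.306 to 0.321 in ish with Dox, against 0.22 to 0.232 in ish without Dox, and 0.176 to 0.179 in ish2 with Dox, against 0.236 to 0.247 in ish2 without Dox. The sum was then 56.8 to 59.6 CPM per kilobase in ish with Dox, against 107 to 113 in ish without Dox, and 60.7 to 62 in ish2 with Dox, against 99.1 to 102 in ish2 without Dox. The ratio kept its order among the groups, but the sums of the induced lines no longer overlapped.

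FGFR3 (chromosome 4, 1793293 to 1808872, plus strand), known for its part in bone growth, was low, at 2 to 2.46 CPM in ish with Dox and 2.42 to 2.62 CPM in ish without Dox. In ish2 it was at 1.68 to 1.82 CPM with Dox and 1.99 to 2.17 CPM without Dox. The groups overlapped in ish and lay apart in ish2, and neither Dox effect was called (log2 fold change -0.17, 95% interval -0.44 to 0.11, adjusted p = 0.256 in ish, and -0.24, interval -0.56 to 0.07, adjusted p = 0.171 in ish2). FGFR2 (chromosome 10, 121478334 to 121598458, minus strand), typical of epithelia, had 1, 1 and 4 reads in ish with Dox, 6, 8 and 3 in ish without Dox, 3, 11 and 11 in ish2 with Dox and 8, 2 and 4 in ish2 without Dox. At this depth FGFR2 was not tested, and its groups overlapped in each construct. Without the low-count filter its Dox effect was -1.44 in ish (edgeR adjusted p = 0.0574) and 0.73 in ish2 (0.267), neither of them called. The difference of 2.17 was called in that fit (adjusted p = 0.0218), where 11249 genes were called for it. It rests on 1 to 11 reads per library.

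PDGFRB (chromosome 5, 150113837 to 150155872, minus strand, 23 exons), the receptor of PDGF-BB on pericytes and fibroblasts, moved in opposite directions. It stood at 3.22, 3.12 and 3.14 CPM in ish with Dox, against 6.72, 7.72 and 7.02 CPM in ish without Dox, 2.26-fold lower (log2 fold change -1.18, SE 0.095, adjusted p = 1.09e-13). Its ish2 values were 10.2, 10.8 and 10.5 CPM with Dox, against 7.59, 6.98 and 6.87 CPM without Dox, 1.47-fold higher (0.55, SE 0.078, adjusted p = 1.07e-07). The uninduced lines overlapped and differed by 0.00 on the log2 scale (95% interval -0.17 to 0.17), and each induced group lay wholly on its own side of them. The Dox effects differed by 1.73 (SE 0.123, adjusted p = 4.34e-15).

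PDGFRA (chromosome 4, 54229097 to 54298247, plus strand), a marker of mesenchymal progenitors, was nearly absent from the reads. It had 3, 0 and 0 reads in ish with Dox, 0, 3 and 1 in ish without Dox, 1, 2 and 4 in ish2 with Dox and 19, 2 and 2 in ish2 without Dox. A count of 0 allows up to 0.0997 CPM in ish with Dox replicate 2, 0.0923 CPM in its replicate 3 and 0.0988 CPM in ish without Dox replicate 1, and these limits cover counting error only. The 19 reads of ish2 no-Dox replicate 1 stood apart from all other libraries, and without the low-count filter PDGFRA was called lower with Dox in ish2 (log2 fold change -1.76, adjusted p = 0.0141) and higher in ish2 than ish without Dox (2.60, adjusted p = 0.00262). The part of that library in these calls was not tested. In the same library 14 reads of CDH1 and 12 reads of DCN, both at 0 in the group's other libraries, were the only other genes with at least 12 reads there and at most 3 in those libraries. By the same rule within each group, this library had 3 such genes, PDGFRA among them. There were 9 in ish without Dox replicate 3, 3 in ish with Dox replicate 3 and 0 to 2 in every other library.

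Promoter letters are shown for FGFR4 and MET, which fell in both constructs, and for PDGFRB, which did not. Each is the 250 bases before a gene start in RefSeq, the upstream one for FGFR4 (build GRCh38.p14), printed 5′ to 3′ on the gene's strand, with capitals for CANNTG, the E-box to which MyoD family factors bind as a class.
FGFR4 (chr5:177086665-177086914, plus strand): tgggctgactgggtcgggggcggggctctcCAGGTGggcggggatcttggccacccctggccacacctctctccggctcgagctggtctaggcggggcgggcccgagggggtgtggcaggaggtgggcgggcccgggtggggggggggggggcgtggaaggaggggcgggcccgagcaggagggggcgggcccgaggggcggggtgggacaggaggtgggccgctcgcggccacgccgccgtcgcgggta
MET (chr7:116671946-116672195, plus strand): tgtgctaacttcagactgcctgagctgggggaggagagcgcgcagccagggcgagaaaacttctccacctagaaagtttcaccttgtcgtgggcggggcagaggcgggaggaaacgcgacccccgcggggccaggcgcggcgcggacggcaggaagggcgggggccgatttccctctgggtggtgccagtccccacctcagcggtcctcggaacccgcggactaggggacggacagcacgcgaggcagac
PDGFRB (chr5:150155846-150156095, minus strand): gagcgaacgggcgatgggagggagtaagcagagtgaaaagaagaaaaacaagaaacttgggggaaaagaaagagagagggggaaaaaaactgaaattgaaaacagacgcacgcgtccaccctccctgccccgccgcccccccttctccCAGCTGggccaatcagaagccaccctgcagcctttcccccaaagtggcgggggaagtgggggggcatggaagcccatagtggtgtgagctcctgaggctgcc
FGFR4 has 1 such site (CAGGTG, starting 220 bases before the gene start), MET has none and PDGFRB has 1 (CAGCTG, starting 102 bases before). Read on both strands, CANNTG occurs in 61.8% of 35116 promoter windows of this length, and its version CAGCTG in 14%. The GC box GGGCGG, counted on both strands, occurs 7 times in FGFR4, 2 times in MET and 1 time in PDGFRB, and in 42.6% of all windows. GC makes up 79.6% of the FGFR4 window, 68.4% of the MET window and 58.4% of the PDGFRB window, against a median of 58%. The downstream FGFR4 window (chr5:177089300-177089549), not printed, differs, with 2 CANNTG sites, no GGGCGG and 57.2% GC. EGFR, which also fell in both constructs and is not printed, has 0 CANNTG sites in its upstream window and 2 in its downstream one. Of the 10 receptors 8 matched the promoter table, and FGFR1 and ERBB3 did not.

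MET (chromosome 7, 116672390 to 116798386, plus strand, 21 exons) fell by nearly the same amount in both constructs. It stood at 57.5, 57.9 and 58.6 CPM in ish with Dox, against 78.1, 79.7 and 79.4 CPM in ish without Dox, 1.36-fold lower (log2 fold change -0.45, SE 0.035, adjusted p = 6.21e-14). In ish2 MET had 60.6, 56.8 and 59.5 CPM with Dox, against 82.1, 78.9 and 87.8 CPM without Dox, 1.41-fold lower (-0.49, SE 0.036, adjusted p = 1.97e-14). The groups did not overlap in either construct. The effects differed by -0.04 (95% interval -0.15 to 0.06, adjusted p = 0.437), which was not called.

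EGFR (chromosome 7, 55019021 to 55211628, plus strand, 28 exons), the receptor of EGF and TGF-alpha, behaved much like MET. It stood at 26.4, 26.2 and 26.6 CPM in ish with Dox, against 33.6, 36.1 and 36.5 CPM in ish without Dox, 1.34-fold lower (log2 fold change -0.42, SE 0.047, adjusted p = 3.64e-10). In ish2 EGFR had 30.5, 29.9 and 29.8 CPM with Dox, against 43.4, 37.8 and 40.1 CPM without Dox, 1.35-fold lower (-0.43, SE 0.047, adjusted p = 4.67e-10). All Dox libraries lay below those without Dox. The difference between constructs was 0.00 (95% interval -0.14 to 0.13, adjusted p = 0.958).

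ERBB2 (chromosome 17, 39687914 to 39730426, plus strand, 27 exons), the shared partner of the EGF receptor family, had the smallest Dox effects of the 8. It stood at 87.4, 90.8 and 84.6 CPM in ish with Dox, against 89.1, 93.3 and 91.7 CPM in ish without Dox. These groups overlapped, and the change was not called (log2 fold change -0.06, 95% interval -0.13 to 0.00, adjusted p = 0.072), although 10 of 20 alternative fits called it lower (adjusted p 0.0145 to 0.295 over all of them). In ish2 it stood at 90.9, 89.2 and 87.9 CPM with Dox, against 97.5, 97 and 92.6 CPM without Dox, 1.07-fold lower (-0.10, SE 0.032, adjusted p = 0.00736), with groups that were apart. The effects differed by -0.04 (interval -0.13 to 0.05, adjusted p = 0.474).

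ERBB3 (chromosome 12, 56076799 to 56103505, plus strand, 28 exons), the neuregulin receptor, changed most of the 8 in both constructs, in opposite directions. It stood at 678, 613 and 651 CPM in ish with Dox, against 201, 180 and 190 CPM in ish without Dox. Every Dox library lay far above those without Dox, a 3.41-fold higher level (log2 fold change 1.77, SE 0.045, adjusted p = 5.37e-15). In ish2 it stood at 69.9, 66.5 and 71.9 CPM with Dox, against 200, 206 and 219 CPM without Dox, and every Dox library lay far below, a 3.00-fold lower level (-1.58, SE 0.051, adjusted p = 2.98e-13). Set against one another, the ish2 effect minus the ish effect was -3.35 (log2, SE 0.068, adjusted p = 3.8e-16), a 10.2-fold lower Dox to no Dox ratio in ish2. A larger change was found in 6.29% of tested genes in ish, in 1.92% in ish2 and in 2.05% for the difference.

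MYOG, the factor of terminal muscle differentiation, stood at 636 to 665 CPM in ish with Dox and 103 to 110 CPM in ish without Dox, and at 16.5 to 18.5 CPM in ish2 with Dox and 73.4 to 93.9 CPM in ish2 without Dox, so it was high and low in the same Dox groups as ERBB3. MYOG was singled out from the muscle markers after its values were seen. TMEM8C and CDH15 also rose in ish and fell in ish2. MYOD1 (log2 fold change 1.6 in ish and 0.17 in ish2) and DES (0.82 and 0.65) rose in both constructs, unlike ERBB3. PAX7 was not called in ish and fell in ish2, and CHRNA1 fell in ish and was not called in ish2. PDGFRB ran the other way, with a Pearson's r to ERBB3 of -0.976 over the 12 libraries, a description in which the 4 groups set most of the spread. Of the 7 tested muscle markers 5 rose and 1 fell in ish, and 2 rose and 4 fell in ish2, while 78.6% of all tested genes were called in ish and 65% in ish2; their part in the ERBB3 result was not tested.

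Within the EGF receptor family the balance shifted with ERBB3. The per-length ratio of ERBB3 to ERBB2 was 5.96, 5.19 and 5.91 in ish with Dox, against 1.73, 1.48 and 1.59 in ish without Dox. In ish2 it was 0.591, 0.573 and 0.628 with Dox, against 1.58, 1.63 and 1.82 without Dox. ERBB3 was thus above ERBB2 in every library except the 3 of ish2 with Dox. With exon unions as lengths the ratio was 7.71 to 8.86 in ish with Dox, against 2.2 to 2.57 in ish without Dox, and 0.852 to 0.934 in ish2 with Dox, against 2.35 to 2.7 in ish2 without Dox. ERBB4, the remaining family member, had at most 1 read in any library.

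In ish with Dox ERBB3 took the first place among the 10 receptors from FGFR4. ERBB3 made up 44.3% to 46% of the summed per-length level in ish with Dox, against 12.2% to 13% in ish without Dox, and 7.62% to 8.29% in ish2 with Dox, against 13.9% to 15.1% in ish2 without Dox. FGFR4 made up 27.8% to 28.5% in ish with Dox, against 53.6% to 54.7% in ish without Dox, and 54% to 54.9% in ish2 with Dox, against 50.2% to 51.7% in ish2 without Dox. The other 9 receptors together had 130 to 135 CPM per kilobase in ish with Dox, against 219 to 227 in ish without Dox, and 134 to 137 in ish2 with Dox, against 208 to 212 in ish2 without Dox. With ERBB3 included the sum was 234 to 249 CPM per kilobase in ish with Dox, against 249 to 261 in ish without Dox, and 146 to 148 in ish2 with Dox, against 244 to 247 in ish2 without Dox. With exon unions this sum was 144 to 154 CPM per kilobase in ish with Dox, against 151 to 159 in ish without Dox, and 89.4 to 90.6 in ish2 with Dox, against 148 to 150 in ish2 without Dox, while ERBB3 made up 47% to 48.8% of it in ish with Dox and 8.18% to 8.89% in ish2 with Dox.

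**Figure D3:**
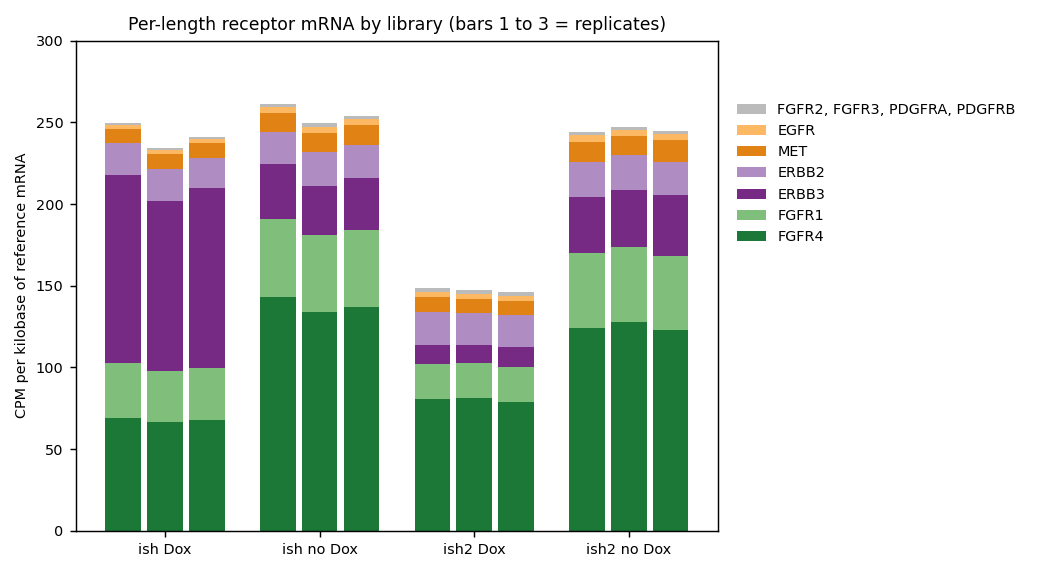
Stacked per-length level (CPM per kilobase of reference mRNA, axis from 0) of the receptors in each library, 3 bars per group. ERBB3 (dark purple) fills 44.3% to 46% of the bars of ish with Dox and 7.62% to 8.29% of those of ish2 with Dox, while FGFR4 (dark green) is the largest part in the other 3 groups.

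Some reads of these genes could be shared. The exons of FGFR1 overlap LETM2 and AC087623.1 on the opposite strand, those of EGFR overlap EGFR-AS1 and those of ERBB2 overlap MIEN1 and PGAP3, while ERBB3 shares exon bases with AC034102.2 and PDGFRA with AC058822.1 on their own strand. The libraries were stranded, but the sources used here do not give whether counting used the strand. Reads set aside as ambiguous were 2.08% to 2.1% of all reads in ish with Dox and 2.59% to 2.65% in ish without Dox, and 2.34% to 2.37% in ish2 with Dox and 2.57% to 2.58% in ish2 without Dox; their part in the results was not tested.

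The genes most alike to each receptor were found by Pearson's r of log2 CPM over the 12 libraries, a description in which the 4 groups set most of the likeness. ERBB3 went most closely with NES, which encodes the intermediate filament nestin (r = 0.9983), and KCNH2, a potassium channel gene (0.9981), and 703 genes passed 0.95. PDGFRB went with COL5A2, a fibrillar collagen gene (0.998), and CPED1 (0.9972), and FGFR4 with the long non-coding RNA HOTAIR (0.9971) and ACADVL, an enzyme of fatty acid oxidation (0.9963). FGFR1 went with DAG1, the dystroglycan gene (0.9966), and AZIN1 (0.9957), and MET with the importin gene KPNA2 (0.995) and PREP (0.994). The closest genes were XPO7 (0.9788) and NEIL3 (0.9738) for EGFR, DFFB (0.9558) and ZNF83 (0.9259) for FGFR3, and BSN (0.9375) and MRPL37 (0.8541) for ERBB2, whose levels varied least. Genes passing 0.95 numbered 1157 for PDGFRB, 290 for FGFR4, 186 for FGFR1 and 155 for MET. For EGFR they numbered 45, for FGFR3 1 and for ERBB2 0. Among the receptors MET was closest to FGFR4 (0.942) and to EGFR (0.927).

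FGF1 and FGF2, which bind FGF receptors, fell in ish and rose in ish2. Of 16 FGF genes 9 were tested: 3 rose and 6 fell in ish, and 4 rose and 1 fell in ish2 (median log2 fold change -0.657 in ish and 0.313 in ish2). Over all tested genes 78.6% were called in ish and 65% in ish2, so the 5 calls among 9 FGF genes in ish2 were under that share. FGF1, which binds all FGF receptors, averaged 3.5 ± 0.0752 CPM in ish with Dox and 17.1 ± 1.13 CPM in ish without Dox (log2 fold change -2.29, SE 0.097, adjusted p = 1.56e-18). In ish2 FGF1 averaged 74.1 ± 4.94 CPM with Dox and 14.6 ± 1.62 CPM without Dox (2.35, SE 0.059, adjusted p = 3.94e-23), so it was lowest in ish with Dox and highest in ish2 with Dox. FGF2, the basic form, followed with -0.76 and 0.60 (adjusted p = 1.89e-12 and 1.35e-11), while FGF7, a ligand of the epithelial form of FGFR2 with few reads, rose by 1.90 in ish and was not called in ish2 (-0.35, adjusted p = 0.508). FGF11, an intracellular member of the family and the one with the smallest p, fell by 2.54 in ish and by 0.24 in ish2.

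Of the 4 PDGF genes, PDGFA and PDGFB moved with PDGFRB and PDGFC and PDGFD did not. A fall in ish with a rise in ish2 was the pattern of 14.1% of all tested genes. Calls in either direction made up 78.6% of them in ish and 65% in ish2, where 33.9% were called higher. PDGFA averaged 41.9 ± 0.434 CPM in ish with Dox and 90.7 ± 0.82 CPM in ish without Dox, and 127.8 ± 4.49 CPM in ish2 with Dox and 75.9 ± 7.43 CPM in ish2 without Dox (log2 fold changes -1.11 and 0.75, adjusted p = 5.32e-14 and 1.89e-11). PDGFB, a ligand of PDGFRB, had log2 fold changes of -1.24 (adjusted p = 2.42e-05) and 0.58 (0.0182). DESeq2 called 1 of the 4 PDGF genes higher in ish2, edgeR 2. PDGFC and PDGFD, which are secreted with a latent domain, rose by 1.56 and 1.70 in ish and were not called in ish2 (0.04, adjusted p = 0.561, and 0.34, adjusted p = 0.184).

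The ligands of MET and of the EGF receptor family were mostly low. HGF, the ligand of MET, averaged 1.43 ± 0.0906 CPM in ish with Dox and 1.80 ± 0.2 CPM in ish without Dox, and 1.46 ± 0.286 CPM in ish2 with Dox and 1.91 ± 0.386 CPM in ish2 without Dox. Neither effect was called (log2 fold change -0.33, 95% interval -0.69 to 0.03, adjusted p = 0.0871 in ish, and -0.40, interval -0.77 to -0.03, adjusted p = 0.056 in ish2). MST1, a relative of HGF that binds another receptor, fell by 0.79 in ish2 (adjusted p = 2.91e-06) and was not called in ish (-0.23, adjusted p = 0.063). Of the 6 genes of this list 4 were tested, with 1 rise and 1 fall in each construct. The share called among all tested genes was 78.6% in ish and 65% in ish2.

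NRG1, a neuregulin that binds ERBB3, fell in ish and rose in ish2, the reverse of its receptor. A fall in ish with a rise in ish2 was the pattern of 14.1% of all tested genes, and of 1 of the 5 tested EGF and neuregulin genes. NRG1 averaged 17.4 ± 0.719 CPM in ish with Dox and 31.8 ± 0.423 CPM in ish without Dox (log2 fold change -0.87, SE 0.046, adjusted p = 7.25e-19). In ish2 it averaged 40.4 ± 0.426 CPM with Dox and 34.0 ± 0.781 CPM without Dox (0.25, SE 0.041, adjusted p = 2.49e-06), and its effects differed by 1.11 between the constructs (adjusted p = 3.85e-18). HBEGF, a ligand of EGFR, rose by 0.89 in ish2 (adjusted p = 3.61e-07) and was not called in ish (-0.21, adjusted p = 0.188). AREG had no read in any library, EREG at most 1 and TGFA at most 10, all below the filter. Of the 11 EGF and neuregulin genes 5 were tested, with 1 rise and 1 fall in ish and 3 rises and no fall in ish2. In the HGF list and in this one a smaller share was called in each construct than over all tested genes. The share over all tested genes was 78.6% in ish and 65% in ish2, where 33.9% were called higher.

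The genes that restrain receptors mostly fell in ish and rose in ish2. Of 23 tested members of this list 16 fell and 5 rose in ish (median log2 fold change -0.521), and 19 rose and 2 fell in ish2 (median 0.354). Over all tested genes 39.5% were called lower in ish and 33.9% higher in ish2. The pattern of a fall in ish with a rise in ish2 held for 15 of the 23, or 65.2%, against 14.1% of all tested genes. The list was chosen with earlier results of these data known, so these shares describe it and test nothing. Calls of any size were counted, among them small ones such as the 0.10 of ERRFI1 in ish2. ERRFI1, an inhibitor that binds the kinase domains of the EGF receptor family, averaged 73.1 ± 1.29 CPM in ish with Dox and 309.8 ± 6.38 CPM in ish without Dox, a fall of 2.08 on the log2 scale, and 379.9 ± 9.83 CPM in ish2 with Dox and 355.7 ± 22.2 CPM in ish2 without Dox (log2 fold change 0.10, adjusted p = 0.0109). SPRY2 and SPRY4, feedback inhibitors between receptor and RAS, had changes of -1.3 and -1.33 in ish and of 0.21 and 0.92 in ish2. CBL, a ubiquitin ligase for activated receptors, had -0.17 and 0.28. LRIG1, a membrane protein that promotes the removal of EGF receptor family members and of MET, moved the other way, by 1.12 in ish and -0.54 in ish2, the directions of ERBB3.

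Of 26 tested adaptors 8 rose and 10 fell in ish and 11 rose and 9 fell in ish2, with medians of 0.021 and 0.017. Over all tested genes 78.6% were called in ish and 65% in ish2. SHC1, the adaptor that links receptors to GRB2, fell in both, by 1.53 in ish (137.0 ± 2.08 CPM with Dox and 394.3 ± 13.2 CPM without Dox) and by 0.56 in ish2 (245.5 ± 4.69 CPM with Dox and 360.8 ± 9.1 CPM without Dox). GAB1, the docking protein of MET, rose by 0.90 in ish and fell by 0.36 in ish2. GAB2, its relative, had -0.05 in ish, which was not called (adjusted p = 0.368), and fell by 0.40 in ish2. FRS2, the docking protein of FGF receptors, had 0.05 in ish, not called (adjusted p = 0.22), and rose by 0.26 in ish2.

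Among co-receptors and ligand carriers 5 of 16 tested members rose and 5 fell in ish, and 7 rose and 7 fell in ish2. The share called over all tested genes was 78.6% in ish and 65% in ish2. GPC1, a glypican that carries heparan sulfate, averaged 818.3 ± 10.2 CPM in ish with Dox and 327.8 ± 6.67 CPM in ish without Dox (log2 fold change 1.32), and 258.5 ± 5.5 CPM in ish2 with Dox and 318.1 ± 13.8 CPM in ish2 without Dox (-0.30). SDC1, a syndecan, fell by 0.80 and by 0.22, and NRP1, a neuropilin that binds several growth factors, fell by 0.41 in ish and rose by 1.3 in ish2. FLRT3, a membrane partner of FGFR1, rose by 2.24 in ish (adjusted p = 3.48e-06) and by 1.43 in ish2 (adjusted p = 0.00471) from few reads. KLB, the co-receptor for endocrine FGFs, and GPC3 were low and fell in ish2 with libraries that overlapped (-1.29, adjusted p = 0.00125, and -0.65, adjusted p = 0.0301); in ish they were not called (-0.39, adjusted p = 0.268, and 0.25, adjusted p = 0.319).

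Of 42 other receptor tyrosine kinases 25 were tested, and 17 fell and 6 rose in ish (median log2 fold change -0.423), and 5 fell and 11 rose in ish2 (0.127). Over all tested genes 39.5% were called lower and 39.1% higher in ish, and 31.1% lower and 33.9% higher in ish2, so the total called in ish2 was near the background of 65%. A fall in ish with a rise in ish2, the pattern of PDGFRB, was seen for 8 of the 25, or 32%, against 14.1% of all tested genes. Falls in both constructs, the pattern of FGFR1, FGFR4, MET and EGFR, were seen for 5 of the 25, or 20%, against 14.1%, and the pattern of ERBB3 for 0 of the 25, against 12%. This list too was chosen with earlier results of these data known, so its shares are a description. AXL, the receptor of GAS6, moved like PDGFRB: it averaged 24.3 ± 1.26 CPM in ish with Dox and 74.7 ± 2.22 CPM in ish without Dox (-1.62), and 125.2 ± 0.772 CPM in ish2 with Dox and 76.3 ± 7.57 CPM in ish2 without Dox (0.71). DDR1, a collagen receptor, rose by 1.03 in ish and was not called in ish2 (-0.04, adjusted p = 0.181). FGFRL1, an FGF receptor without a kinase domain, fell by 0.62 and by 0.31, and IGF1R, the receptor of IGF1 and IGF2, had small changes of -0.12 and 0.13. INSR, the insulin receptor, fell by 0.52 in ish and was not called in ish2 (-0.11, adjusted p = 0.0633), and EPHA2, an ephrin receptor, had -0.32 and 0.20. KIT, the receptor of stem cell factor, had at most 1 read in any library.

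**Figure D4:**
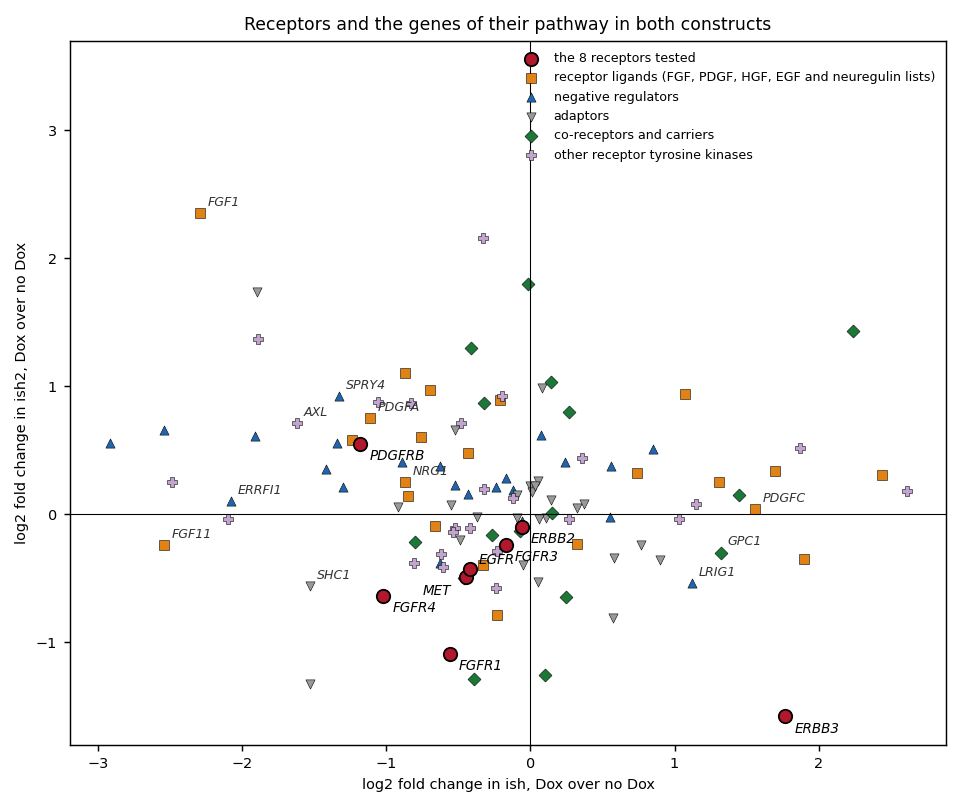
Log2 fold change (Dox over no Dox) in ish on the x axis and in ish2 on the y axis for the 8 tested receptors (red) and the tested genes of the pathway lists, 1 point per gene. Most negative regulators (blue triangles) lie at the upper left, where 15 of 23 were called, and ERBB3 stands alone among the receptors at the lower right.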

How the data were processed

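RNA of 12 RD cell libraries was sequenced, per the labels' protocols, as stranded mRNA libraries with 75-base paired-end reads. The deposited table holds raw counts per gene symbol without normalization. Tools listed in the submitters' processing notes, without their roles, were STAR 2.7.3a, Trim Galore 0.6.4, Subread 1.6.3 and featureCounts; the build listed was GRCh38, and the sources used here do not give the annotation. The 5 rows of unassigned reads, 21% to 24.4% of the reads of a library, were kept out of the fits. Sample titles gave the groups, and the headers' Sh1 and Sh2 were taken as ish and ish2.

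Genes passing filterByExpr by group (15206 of 26485) were scaled by TMM and fitted in 1 quasi-likelihood model of 4 group means (edgeR 4.0.16, R 4.3.3, robust), with Benjamini-Hochberg adjustment over all tested genes and calls at an adjusted p under 0.05. SE was back-calculated from F. The common dispersion was 0.000596, a coefficient of variation of 2.44%, so small changes pass. Replicates differed by more than counting noise (chi-square over its degrees of freedom 1.34 to 4.1), and each was counted once. Residuals of like-numbered libraries correlated at -0.0798 to 0.0381, so numbers were not taken as pairs and the main fit has no block. Lengths and coordinates are from GENCODE 29 (GRCh38; APPRIS principal transcript), promoters from RefSeq. The alternatives were other scalings, no filter, DESeq2 1.42.0, plain moderation, 6 libraries alone, a block, and each library left out. The members, the gene lists and the genes to be named from each list were chosen with earlier results of these data known. From each list the text names these genes and the one with the smallest p, and for each receptor its 2 most alike genes.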

Additional observations from a re-analysis of the deposited data

Results flagged for a closer look

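4 of the 8 tested receptors responded differently to Dox in the constructs, by a test of the difference itself (ish2 effect minus ish effect, edgeR, 3 libraries in each of 4 groups). The difference was -3.35 on the log2 scale for ERBB3 (adjusted p = 3.8e-16), 1.73 for PDGFRB (adjusted p = 4.34e-15), -0.53 for FGFR1 (adjusted p = 1.29e-14) and 0.38 for FGFR4 (adjusted p = 3.78e-11). All 3 Dox libraries of ERBB3 and of PDGFRB moved one way in ish and the other way in ish2, whereas FGFR1 and FGFR4 were lower with Dox in all 6 Dox libraries and differed in size. Of all tested genes 72.6% were called for this difference. No group of 3 libraries was tested for a library far from the others.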

How the results depend on the processing

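Of 32 receptor results (8 receptors in 4 comparisons), 28 kept their side of the threshold under all alternatives run, and none that was called changed sign. The 4 that did not were ERBB2 in ish, called lower in 10 of 20 alternatives (log2 fold change -0.093 to -0.065, adjusted p 0.0145 to 0.0439), and 3 small differences between the uninduced lines: ERBB3, lost in 8 (adjusted p 0.0533 to 0.221), MET, called in 1 (0.0263), and ERBB2, called in 1 (0.0469); the cause was not tested. Counts of called genes stayed within 1.5 times of the main ones. With the replicate block they were 11926 in ish, 9835 in ish2, 11017 for the difference and 3918 between uninduced lines, against 11945, 9883, 11039 and 3974 without it, and the block changed no call of a receptor. Across the 12 fits that each left out 1 library they ran from 11544 to 12140, 9350 to 9893, 10807 to 10977 and 2985 to 4099. Of 128 recounts of the gene lists 8 moved by over 1.5 times, all in ligand lists of few genes. Exon unions as lengths moved 17 of 20 per-length levels without Dox. Receptors with few reads (FGFR2, PDGFRA, FGFR3) are limited by depth.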
